A study of Mus musculus with 6 samples.

Results

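The insulin-like growth factor (IGF) genes described here are the ligand Igf1, the receptors Igf1r and Insr, and the binding protein genes Igfbp2, Igfbp3, Igfbp4, Igfbp5, Igfbp6 and Igfbp7. They were chosen by symbol, and all 9 of these genes were found among the 55401 genes of the count tables. Polyadenylated RNA was sequenced from primary mouse cholangiocytes, the epithelial cells of the bile ducts, captured by bead-bound antibody to EpCAM, an epithelial surface protein. The 3 PLD libraries came from mice with polycystic liver disease, and the 3 WT libraries came from wild-type mice, and the labels place both groups 3 months after tamoxifen induction. The labels give the genotype only as PLD or WT, so the altered gene, the Cre line, the strain, the sex and the age are not stated. They do not say whether the libraries of a group came from separate animals, so the p-values rest on the differences among libraries, part or all of which may be technical.

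IGF-1 is a small growth factor that is made in large part by the liver under the control of growth hormone, and it binds the IGF-1 receptor, a tyrosine kinase closely related to the insulin receptor. The binding proteins hold IGFs in blood and in the extracellular space, where they prolong their life, carry them or keep them from the receptor, and proteases release the bound ligand. Cholangiocytes are known to respond to IGF-1 with growth.

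Counted reads per library ran from 15768561 to 16710548. Of the 12 cholangiocyte markers 12 were higher in PLD, with a summed level of 32269 to 41346 CPM (counts per 1000000 counted reads) in PLD and 9791 to 13708 CPM in WT. Of the 12 endothelial markers 12 were lower in PLD, with 456 to 822 CPM in PLD and 6077 to 8168 CPM in WT, and 0 of them stood at 0 reads in any library. Of the 12 fibroblast, stellate and smooth muscle markers 10 were lower, with 1691 to 4730 CPM in PLD and 9067 to 14204 CPM in WT. PLD replicate 1 stood somewhat apart, with the lowest endothelial and fibroblast sums of the 6 libraries (456 and 1691 CPM), and a log2 CPM correlation with the other PLD libraries of 0.976 and 0.973, against 0.991 between those libraries. WT replicate 1 likewise had the lowest endothelial and fibroblast sums of WT (6077 and 9067 CPM). Its correlation with the other WT libraries was 0.971 and 0.980, against 0.988 between those libraries. In such bulk preparations, fewer cells of a type and less RNA per cell cannot be told apart.

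Most transcripts of the IGF system were lower in PLD than in WT preparations. At a Benjamini-Hochberg adjusted p under 0.05 in edgeR's quasi-likelihood F test over all genes, 7 of the 9 genes fell (Igf1, Igf1r, Insr, Igfbp2, Igfbp4, Igfbp6 and Igfbp7) and 0 rose, where 28.4% of the 15334 genes tested were lower and 27% higher, 55.4% in either direction. Igfbp3 and Igfbp5 did not pass. The fall was at least 2-fold for 5 of the 9 genes, against 18.1% of all genes tested. The median log2 fold change was -1.55 over the 9 genes and 0.0060 over all genes tested. PLD values lay below every WT value for 8 of the 9 genes, the exception being Igfbp5, against 33.2% of all genes tested.

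**Figure D1:**
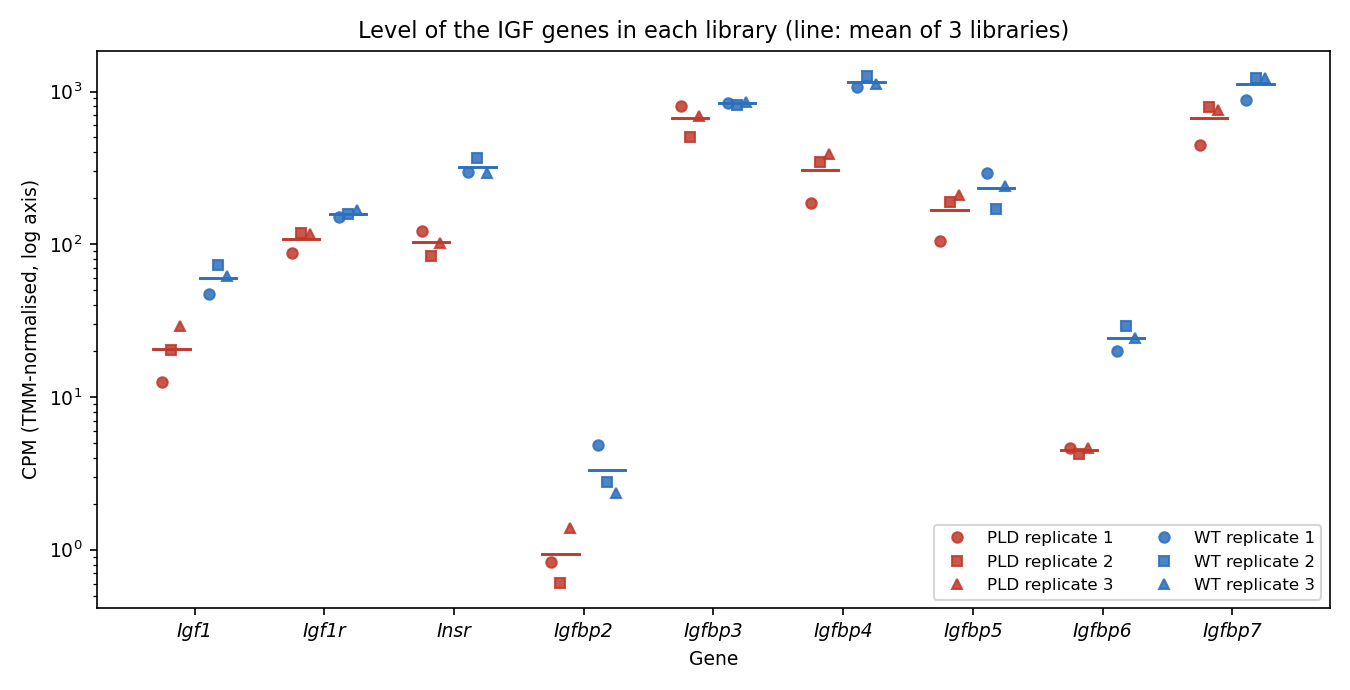
Level of each IGF gene in CPM (TMM-normalised, log axis) in the 3 PLD libraries and the 3 WT libraries, 1 point per library, with a line at each group's mean. PLD points lie below all WT points for 8 genes and overlap them for Igfbp5.

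Igf1 (ENSMUSG00000020053.18, mm10 chromosome 10, 87858265 to 87937042), which encodes the ligand, had 12.5, 20.4 and 29.1 CPM in PLD replicates 1 to 3, against 47.1, 72.8 and 61.8 CPM in WT replicates 1 to 3. The highest PLD library lay below the lowest WT library, and the spread within PLD was wide. The fitted PLD level was 34.2% of the WT level, a log2 fold change of -1.55 ± 0.30 (± standard error, SE) and an edgeR adjusted p of 0.00363. Within each group the libraries stood in the same order for Igf1 as for the summed endothelial markers (456, 670 and 822 CPM in PLD, 6077, 8168 and 7417 CPM in WT) and for the summed fibroblast, stellate and smooth muscle markers (1691, 3813 and 4730 CPM in PLD, 9067, 14204 and 11809 CPM in WT). Of the other IGF genes only Igfbp4 stood in that order in both groups, and Insr and Igfbp3 were highest in PLD replicate 1. Both marker sums share the same order, so they are not separate matches. With 3 libraries per group such an order can arise by chance, and how many of all tested genes share it was not counted. The part of endothelial, fibroblast, stellate and smooth muscle cells in the fall of Igf1 was not tested. Macrophages are another known source of Igf1, and of the 10 macrophage markers 2 were higher, 1 was lower and 7 did not pass. Their summed level was 606, 832 and 888 CPM in PLD and 540, 591 and 608 CPM in WT, and the part of macrophages was not tested either. The 3 genes with the most similar profile over the 6 libraries, by the root mean square (RMS) difference of centred log2 CPM among 9981 genes, were Hgf (0.087), Dram1 (0.1002) and Adamts2 (0.116). Hgf encodes hepatocyte growth factor. The profiles span both groups, so this measure, here and below, favours genes with a similar log2 fold change (Hgf -1.63, Dram1 -1.48 and Adamts2 -1.67).

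The receptor genes both fell. Insr (ENSMUSG00000005534.10, chromosome 8, 3122061 to 3279617), the insulin receptor gene, had 123, 83.6 and 103 CPM in the PLD libraries, against 296, 367 and 291 CPM in the WT libraries. The groups were widely apart, with a log2 fold change of -1.63 ± 0.17 SE (edgeR adjusted p = 2.53e-04). Igf1r (ENSMUSG00000005533.10, chromosome 7, 67952827 to 68233668), the IGF-1 receptor gene, had 88.2, 118 and 117 CPM in PLD, against 150, 158 and 167 CPM in WT. The groups did not overlap, but the change was smaller, with a log2 fold change of -0.55 ± 0.13 SE (edgeR adjusted p = 0.00978). Igf1r has the longest gene model of the 9 genes (16791 exonic bases), and after a correction for gene length it no longer passed (log2 fold change -0.14, edgeR adjusted p = 0.348). The Insr value was -1.29 after the same correction and still passed (adjusted p = 8.68e-04).

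The receptors can be set against each other within a library, where scaling between libraries has no part. Per kilobase of gene model, the log2 ratio of Igf1r to Insr was -0.77, 0.21 and -0.09 in the PLD libraries, against -1.27, -1.50 and -1.10 in the WT libraries. The PLD ratios lay above all WT ratios, with means of -0.22 ± 0.50 in PLD and -1.29 ± 0.20 in WT (SD, n = 3 libraries each). The difference was 1.07 on the log2 scale (two-sided exact permutation p = 0.10, the smallest that 3 against 3 libraries can give). It largely restates the gap between the fold changes of Igf1r and Insr given above and is no separate evidence. In level per length, Insr stood at 7.49 ± 1.43 and Igf1r at 6.43 ± 1.02 RPKM (CPM per kilobase of gene model) in PLD, values whose libraries overlapped, whereas in WT Insr stood at 23.1 ± 3.07 RPKM and Igf1r at 9.42 ± 0.50 RPKM without overlap. Profiles nearest to Insr were those of Cdh13 (RMS difference 0.087), Sgk1 (0.122) and Lilr4b (0.125), and those nearest to Igf1r were Dlg3 (0.031), Nlgn2 (0.039) and Ipo11 (0.042).

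Igfbp7, Igfbp3 and Igfbp4 were the most abundant transcripts per length. In PLD the levels were 551 ± 160 RPKM for Igfbp7, 213 ± 48.5 RPKM for Igfbp3, 69.4 ± 24.5 RPKM for Igfbp4 and 28.0 ± 9.27 RPKM for Igfbp5, each step without overlap between libraries. In WT the levels were 921 ± 165 RPKM for Igfbp7, 267 ± 6.51 RPKM for Igfbp3, 261 ± 22.5 RPKM for Igfbp4 and 38.9 ± 10.2 RPKM for Igfbp5. There Igfbp3 and Igfbp4 overlapped, as did Insr and Igfbp6 (22.0 ± 4.11 RPKM) further down, and the other steps did not. Igf1 (2.09 ± 0.84 RPKM in PLD and 6.11 ± 1.30 RPKM in WT) and Igfbp2 (0.51 ± 0.21 RPKM in PLD and 1.80 ± 0.72 RPKM in WT) closed the order in both groups.

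Igfbp6 and Igfbp4 had the lowest log2 fold changes of the binding proteins, with Igfbp2 close to Igfbp4. Igfbp6 (ENSMUSG00000023046.6, chromosome 15, 102144362 to 102149511), whose product prefers IGF-2 over IGF-1, had 4.61, 4.21 and 4.62 CPM in PLD, against 20.1, 29.2 and 24.3 CPM in WT. The PLD libraries were nearly equal and far below WT, with a log2 fold change of -2.45 ± 0.18 SE (edgeR adjusted p = 6.51e-05), or 18.3% of the WT level. Igfbp4 (ENSMUSG00000017493.12, chromosome 11, 99041244 to 99054392), whose product holds IGFs away from their receptor until it is cleaved, had 185, 343 and 391.9 CPM in PLD, against 1068, 1262 and 1126 CPM in WT. PLD replicate 1 was the lowest library, and the groups lay far apart, with a log2 fold change of -1.91 ± 0.27 SE (edgeR adjusted p = 8.86e-04). The profiles most like Igfbp6 were Mcam (RMS difference 0.087), an endothelial and pericyte adhesion gene, Map1a (0.109) and Msn (0.124), and those most like Igfbp4 were Itga1 (0.059), Pcdhgc3 (0.059) and Pip4k2a (0.071). Mesothelial cells can express Igfbp6, and of the 6 mesothelial markers 4 were lower, 1 was higher (Msln, log2 fold change 5.77) and 1 did not pass, with Muc16 at 0 reads in at least 1 library. Their summed level, which Msln dominates in PLD, was 765 to 1073 CPM in PLD and 124 to 167 CPM in WT, and their part in the fall of Igfbp6 was not tested.

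Igfbp7 (ENSMUSG00000036256.13, chromosome 5, 77349240 to 77408041), a secreted matrix protein gene whose product binds IGFs weakly and is abundant in blood vessels, had 444, 797 and 757 CPM in PLD, against 884, 1225 and 1232 CPM in WT. The highest PLD library came close to the lowest WT library. Its log2 fold change was -0.74 ± 0.24 SE (edgeR adjusted p = 0.0340), and the call was lost without PLD replicate 3 (-0.83, adjusted p = 0.0541), without WT replicate 2 (-0.67, adjusted p = 0.0930) and without WT replicate 3 (-0.66, adjusted p = 0.105). The call of Igfbp7 held in the other 11 alternatives (-1.09 to -0.51), among them the correction for gene length (-1.06, edgeR adjusted p = 0.0105). An 85-base stretch of its model, 7.03% of the exonic length, is shared with Polr2b on the opposite strand, and the models of the other 8 genes share no exonic base with another gene. Creld1 (RMS difference 0.072), Amer1 (0.088) and Pam (0.091) had the most similar profiles.

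Igfbp2 (ENSMUSG00000039323.18, chromosome 1, 72824503 to 72852474), which encodes a binding protein made by the liver and found in serum, was the least abundant of the 9 genes. It had 12, 10 and 23 reads in PLD, against 82, 47 and 38 reads in WT, which is 0.83, 0.61 and 1.38 CPM against 4.84, 2.77 and 2.35 CPM. The groups did not overlap, and the log2 fold change was -1.81 ± 0.42 SE (edgeR adjusted p = 0.00820). Of the 10 hepatocyte markers 3 were higher, 3 were lower and 4 did not pass, with a summed level of 2743 to 6733 CPM in PLD and 1641 to 2554 CPM in WT. Albumin (Alb), which did not pass (edgeR adjusted p = 0.0537), was the largest part of that sum in every library, with 1303, 5090 and 5512 CPM in PLD, against 1085, 1752 and 1888 CPM in WT. The 3 markers that were lower were Ahsg, Cps1 and Serpina1e, with log2 fold changes of -3.83, -4.11 and -3.67. The 3 that were higher were Hnf4a, Cyp2e1 and Ttr, with 2.01, 1.81 and 0.69. Both sets were named after their values were seen. Within WT, Igfbp2 was highest in replicate 1, as were Hnf4a and Ttr, whereas the other hepatocyte markers of the list were lowest there. For Igfbp2 this order rests on few reads (82, 47 and 38). The part of hepatocyte RNA in the fall of Igfbp2 was not tested. The nearest profiles, Sema3g (RMS difference 0.283), Vps13c (0.285) and Abca9 (0.290), were less alike than those of the other 8 genes. Only genes with a mean log2 CPM of 3 or more were searched, and Igfbp2 stood at 0.87. Its counting error enters these differences, so they cannot be set evenly against those of the other genes.

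Igfbp5 (ENSMUSG00000026185.8, chromosome 1, 72857932 to 72874884), whose product binds extracellular matrix, lies 5457 bases from Igfbp2, in tail-to-tail orientation and with no other gene of the tables between them. Its levels overlapped, with 105, 190 and 209 CPM in PLD, against 292, 169 and 239 CPM in WT. PLD replicate 1 and WT replicate 1 were the extremes, and the log2 fold change of -0.47 ± 0.29 SE did not pass (edgeR adjusted p = 0.194). Whether Igfbp5 differed from Igfbp2 in its response was not tested. Its nearest profiles were Irgm1 (RMS difference 0.098), Frem2 (0.115) and Disp1 (0.127).

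Igfbp3 (ENSMUSG00000020427.11, chromosome 11, 7206086 to 7213923), which encodes the main IGF carrier of serum, had 804, 503 and 692 CPM in PLD, against 838, 814 and 855 CPM in WT. PLD libraries lay below the tightly grouped WT libraries, and PLD replicate 1 came near them. The log2 fold change of -0.33 ± 0.18 SE did not pass (edgeR adjusted p = 0.150). Without PLD replicate 1 it was -0.48 and passed (adjusted p = 0.0337). Ralgps1 (RMS difference 0.047), Slc11a1 (0.048) and Plekha8 (0.055) had the nearest profiles.

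**Figure D2:**
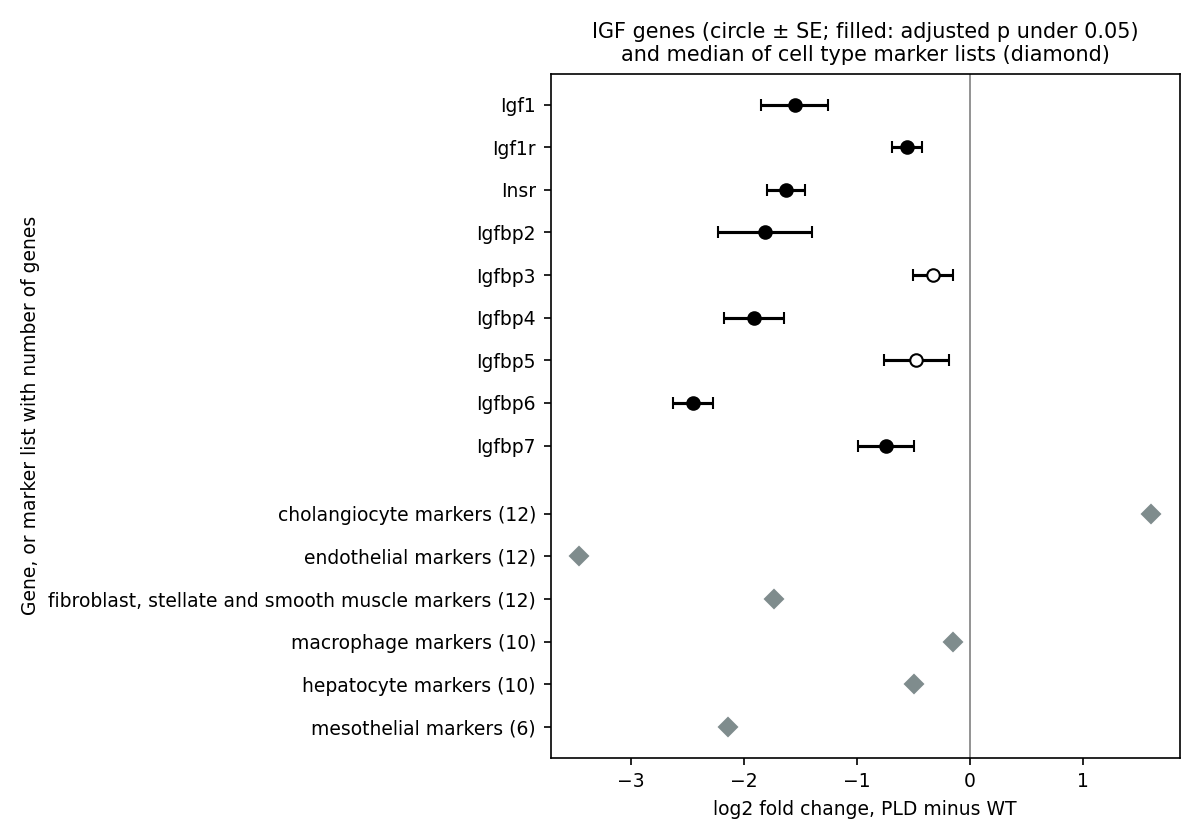
Log2 fold change (PLD minus WT) of each IGF gene with its standard error, filled where the edgeR adjusted p was under 0.05, above the median log2 fold change of 6 cell type marker lists (diamonds, number of genes in brackets). The IGF genes lie between -2.45 and -0.33, the endothelial median at -3.45, the fibroblast median at -1.73 and the cholangiocyte median at 1.61.

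Within the mix of binding protein transcripts, Igfbp2, Igfbp4 and Igfbp6 held smaller shares in every PLD library than in any WT library. Per kilobase, the 6 binding proteins summed to 688, 933 and 975 RPKM in the PLD libraries, against 1310, 1615 and 1610 RPKM in the WT libraries. Igfbp4 made up 6.09%, 8.32% and 9.10% of this sum in PLD, against 18.5%, 17.7% and 15.8% in WT, without overlap. Igfbp6 made up 0.478% ± 0.108 in PLD and 1.45% ± 0.150 in WT (SD, n = 3 libraries each), also without overlap. Igfbp2, with few reads, made up 0.0650%, 0.0354% and 0.0767% in PLD, against 0.200%, 0.0929% and 0.0790% in WT, where the highest PLD library came close to the lowest WT library. Igfbp7 held the largest share in every library, with 53.4%, 70.6% and 64.2% in PLD and 55.8%, 62.7% and 63.3% in WT, which overlapped. Igfbp3 held 37.3%, 17.2% and 22.7% in PLD, against 20.4%, 16.1% and 17.0% in WT, and the mean difference of 7.90 percentage points was 2.11 without PLD replicate 1. These shares follow from the levels given above and were not tested.

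**Figure D3:**
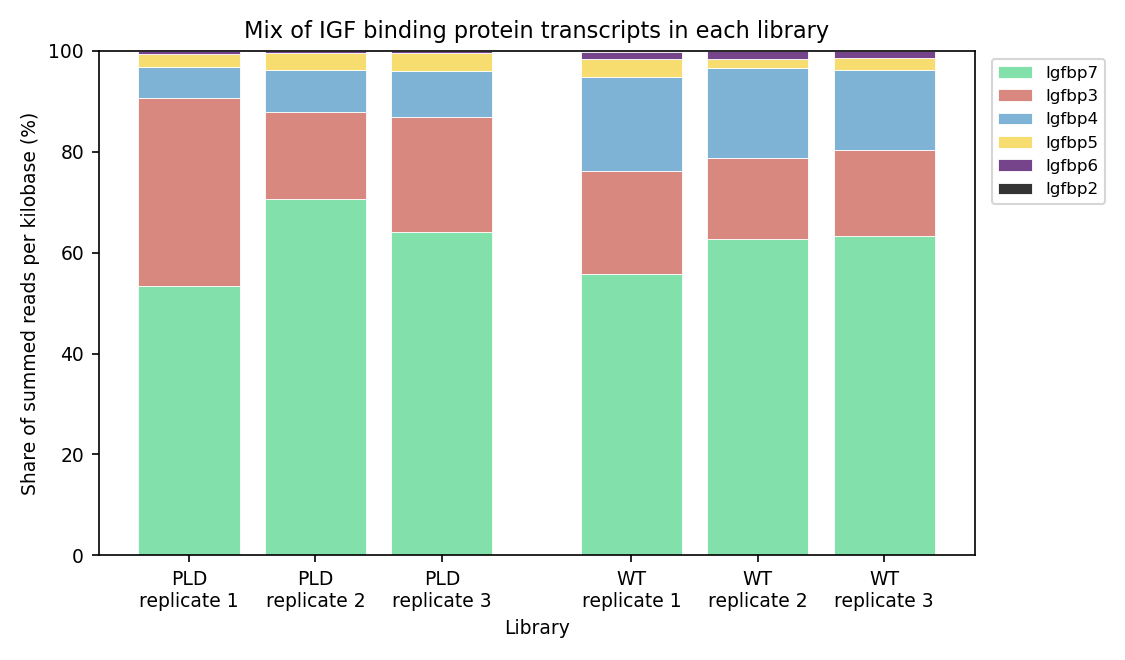
Share of each binding protein gene in the summed reads per kilobase of Igfbp2 to Igfbp7 (%, stacked bars from 0 to 100), for the 3 PLD libraries and the 3 WT libraries. The Igfbp4 segment takes 6.09% to 9.10% in PLD and 15.8% to 18.5% in WT.

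Set beside the cell type markers, the log2 fold changes of the IGF genes lay between those of an epithelial gene that rose (Epcam, 1.61 ± 0.24 SE, edgeR adjusted p = 0.00107) and an endothelial gene that fell (Pecam1, -3.59 ± 0.20 SE, edgeR adjusted p = 3.75e-05). With those 2 changes fixed, reads of every IGF gene per Epcam read are bound to be fewer in PLD, and reads per Pecam1 read more, so neither ratio adds to the levels above. As an example, Igf1 had 0.920 to 3.16 reads per 100 Epcam reads in PLD and 11.9 to 28.6 in WT, and 20.4 to 30.6 reads per 100 Pecam1 reads in PLD and 5.70 to 6.83 in WT. The median of the fibroblast, stellate and smooth muscle markers (-1.73) fell among the IGF genes, with Igfbp6, Igfbp4 and Igfbp2 below it and the other 6 above it. These positions are a description, and which cells the RNA came from was not tested.

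Promoter sequences of RefSeq (GRCm38.p6) were matched by symbol for 8 of the 9 genes, all but Insr. The 4 windows below hold the 250 bases before the RefSeq start, read 5′ to 3′ on the strand of the gene. They belong to genes that were each called lower in PLD, and whether these genes share a regulator was not tested. They are shown because they include the receptor gene, the binding proteins with the highest levels among those that fell and the one with the largest fall. Capitals mark matches on either strand to the GC box GGGCGG, the TATA box TATAAA and the FOXO core GTAAACA, the last searched because FOXO factors are switched off by insulin and IGF signalling.
Igf1r (chr7:67952007-67952256, plus strand): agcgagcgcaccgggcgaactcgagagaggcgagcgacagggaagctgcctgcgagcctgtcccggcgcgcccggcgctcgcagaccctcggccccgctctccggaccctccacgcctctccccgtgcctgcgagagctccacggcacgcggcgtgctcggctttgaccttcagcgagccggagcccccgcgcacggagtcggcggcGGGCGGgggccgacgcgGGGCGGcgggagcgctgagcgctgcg
Igfbp7 (chr5:77408046-77408295, minus strand): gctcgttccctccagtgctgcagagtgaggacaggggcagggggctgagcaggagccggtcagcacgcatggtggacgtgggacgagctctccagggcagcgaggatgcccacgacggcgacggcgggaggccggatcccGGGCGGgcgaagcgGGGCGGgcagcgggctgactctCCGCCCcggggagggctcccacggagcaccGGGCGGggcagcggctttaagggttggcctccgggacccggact
Igfbp4 (chr11:99040994-99041243, plus strand): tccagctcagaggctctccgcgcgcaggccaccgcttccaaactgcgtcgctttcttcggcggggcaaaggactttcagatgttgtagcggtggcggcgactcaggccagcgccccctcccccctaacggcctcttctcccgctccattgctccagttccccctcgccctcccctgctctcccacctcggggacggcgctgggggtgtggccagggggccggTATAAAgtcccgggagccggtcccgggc
Igfbp6 (chr15:102143936-102144185, plus strand): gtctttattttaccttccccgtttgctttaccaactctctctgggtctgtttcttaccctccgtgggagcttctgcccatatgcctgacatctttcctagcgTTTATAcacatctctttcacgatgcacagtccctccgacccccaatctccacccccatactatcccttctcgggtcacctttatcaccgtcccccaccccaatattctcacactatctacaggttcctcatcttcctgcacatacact
The Igf1r window held 2 GC boxes and 42 CpG dinucleotides, and the Igfbp7 window 4 GC boxes and 26 CpG dinucleotides, against a median of 6 CpG over 32841 promoters. A GC box occurred in 32.7% of those promoters, a TATA box in 12.4% and a FOXO core in 3.17%. Igfbp4 held a TATA box that began 28 bases before the RefSeq start. The Igfbp6 window, with 7 CpG dinucleotides, held the TATA letters on the opposite strand only, at 148 bases. The Igf1r and Igfbp6 windows end at 67952256 and 102144185, before the counted gene models, which start at 67952827 and 102144362. The letters of the FOXO core were found in 0 of the 9 windows of the 8 genes.

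Other genes of the axis were read from 4 lists. Among the other ligands, receptors and binding proteins 3 of 5 tested genes fell and 0 rose (median log2 fold change -2.45), where 28.4% of all tested genes were lower and 27% higher. Igf2, the fetal ligand gene, had 0.413, 0.366 and 0.480 CPM in PLD, against 5.66, 3.07 and 3.46 CPM in WT (log2 fold change -3.25 ± 0.36 SE, edgeR adjusted p = 3.40e-04). Igfbp1, the insulin-repressed binding protein gene of hepatocytes, had 0.276, 0.305 and 0.661 CPM in PLD, against 1.06, 7.90 and 3.58 CPM in WT, an uneven WT group (log2 fold change -3.30 ± 0.77 SE, edgeR adjusted p = 0.00855). The PLD values of Igf2 and Igfbp1 rest on few reads. Insrr, the insulin receptor-related receptor gene, with few reads, fell by 2.45 ± 0.60 on the log2 scale, with 0.0689 to 0.427 CPM in PLD and 0.825 to 2.36 CPM in WT. Igf2r, the scavenging receptor for IGF-2, had a log2 fold change of 0.08 and Igfals, the serum partner of IGFBP-3, one of 0.59, and neither passed. Ins1, Ins2 and Igfbpl1 had too few reads to be tested.

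IGFBP proteases and the stanniocalcins, which inhibit the pappalysins, fell for 6 of 7 tested genes, and 0 rose (median -0.96), again beside 28.4% of all tested genes lower and 27% higher. Pappa, the protease that cleaves IGFBP-4, had 6.27, 7.38 and 7.21 CPM in PLD, against 29.6, 100.6 and 54.4 CPM in WT. The WT libraries varied widely, yet all lay above PLD (log2 fold change -3.14 ± 0.42 SE, edgeR adjusted p = 7.65e-04). The metalloprotease gene Adam12, with few reads in PLD, fell by 3.44 ± 0.54, and Stc2, the stanniocalcin-2 gene, by 0.96 ± 0.17 on the log2 scale. Adam9 (0.05) did not pass, and Adam28 was not tested. Of 6 growth hormone axis genes 4 fell and 0 rose (median -0.68), beside the same 28.4% lower and 27% higher over all tested genes. The growth hormone receptor gene Ghr had 31.5, 28.1 and 24.7 CPM in PLD, against 49.1, 60.6 and 54.2 CPM in WT (log2 fold change -0.96 ± 0.13 SE, edgeR adjusted p = 8.05e-04), and its transcription factor genes Stat5a and Stat5b had log2 fold changes of -0.93 ± 0.10 and -1.05 ± 0.16 SE. The STAT5 target genes Socs2 (0.13) and Cish (0.33) did not pass.

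Downstream of the receptors, 12 of 35 insulin and IGF receptor signalling genes fell, 6 rose and 17 did not pass (median -0.06). Over all tested genes 28.4% were lower and 27% higher, 55.4% in either direction, so the share of signalling genes called was close to that of the whole table. Grb10, an adaptor that dampens both receptors, had 42.1, 45.0 and 45.7 CPM in PLD, against 98.2, 93.4 and 97.5 CPM in WT (-1.12 ± 0.09 SE, edgeR adjusted p = 7.85e-05). The receptor substrate gene Irs1 fell by 1.80 ± 0.24. The translation inhibitor gene Eif4ebp1 had the largest rise of the list (log2 fold change 0.96 ± 0.20 SE, edgeR adjusted p = 0.00464) and was named after its value was seen. Endothelial and fibroblast marker medians were -3.45 and -1.73 in the same libraries, and their part in the falls within these 4 lists was not tested.

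**Figure D4:**
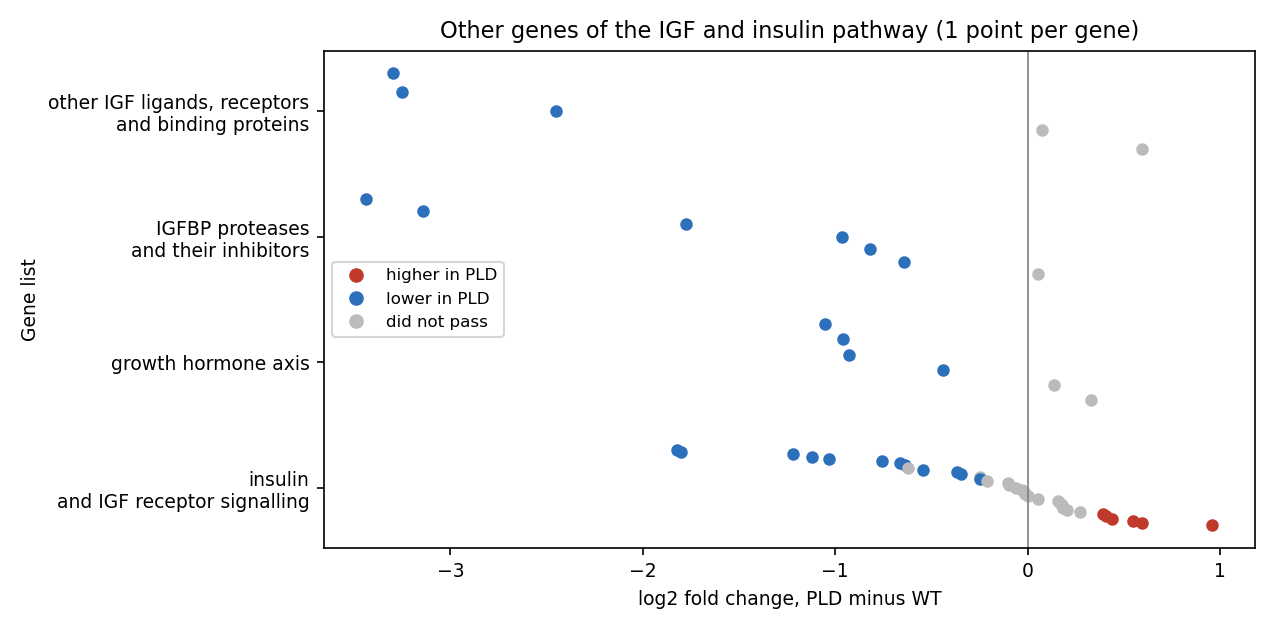
Log2 fold change (PLD minus WT) of each tested gene in 4 lists of the IGF and insulin pathway, 1 point per gene, coloured by the edgeR call. In the upper 3 lists 0 genes rose, and in receptor signalling 6 rose and 12 fell.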

How the data were processed

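Per the file headers, the authors counted reads of each library with featureCounts 1.6.0 against GENCODE vM25 (mm10), and the deposited counts are not normalised. The command there sets no strand, pairing or multi-mapping option, so reads of overlapping genes on opposite strands cannot be told apart. The submitters' processing notes further list STAR 2.7.4a, SAMtools 1.12 and DESeq2 1.26.0. Symbols were matched by gene ID without version for 55141 of 55401 genes, from GENCODE vM21.

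The test was that of edgeR 4.0.16 (in R 4.3.3, with limma 3.58.1) on all 6 libraries: filterByExpr by group, TMM factors (0.922 to 1.04), quasi-likelihood F test without covariates, and Benjamini-Hochberg adjustment over 15334 genes. The standard error is the log2 fold change divided by the square root of F. The biological coefficient of variation was 0.196. CPM are TMM-normalised for single genes and per total counts for summed marker lists, and RPKM divide CPM by the exonic length in the files. A floor of 3 counts is 0.180 to 0.190 CPM. No molecular identifiers are mentioned, so low counts carry counting error at least. The chi-square per degree of freedom between replicates was 9.72 or more, so no pair agreed within sampling noise.

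Counts were simulated for 15334 genes, for PLD against WT, with means and a spread modelled on the measured genes. For each fold, 100 genes were changed. The test recovered 66% of 2-fold and 95% of 4-fold changes, 0 in the wrong direction, with 5.85% false calls. In the measured data 55.4% of the genes were called, a far larger part than was changed in the simulation. The simulated rates therefore cannot be carried over to the measured comparison.

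Genes and lists were chosen with earlier results of these data known. The genes named are the 9 IGF genes, of each pathway list the 3 with the smallest p, and for each IGF gene the 3 with the most similar profile among genes whose mean log2 CPM is 3 or more. A gene that this rule names is not reported here, and others are said to be named after their values were seen or stand for genes that did not pass. Alternatives were DESeq2 1.42.0, limma-voom, RLE factors, no filter on low counts, 1 CPM in 3 libraries, a centred loess correction for gene length (span 0.5), a replicate block and leaving out each library.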

Additional observations from a re-analysis of the deposited data

How the results depend on the processing

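All 9 IGF genes kept a negative log2 fold change in each of 14 alternatives, and 6 to 8 of them were called lower, also when leaving out 1 library, with 0 called higher. The calls of Igf1, Insr, Igfbp2, Igfbp4 and Igfbp6 held in every one of them. Igf1r lost its call with the length correction (-0.14, edgeR adjusted p = 0.348) and with that correction and the block together (-0.15, adjusted p = 0.256). Igfbp7 and Igfbp3 changed call without single libraries, as given above, and the cause was not tested. Genes called over the whole table numbered 8493, and 6799 to 8745 without 1 library. The labels do not say whether equal replicate numbers pair the libraries. Deviations of same-numbered PLD and WT libraries correlated at 0.156, 0.036 and 0.061, and not every library correlated best with its own number. With so few libraries these correlations cannot decide whether a pairing exists. With the replicate block 8162 genes and 7 of the 9 IGF genes were called, and the mean of the paired receptor ratios was 1.07 (exact p = 0.25, the smallest 3 pairs can give). The receptor ratio difference was 0.86 to 1.35 without 1 library. Without division by gene length, the share difference between PLD and WT was -17.7 percentage points for Igfbp4, 2.07 for Igfbp5 and -0.47 for Igfbp6, as the longer models then weigh more, and the other shares moved by less than their spread. Without 1 library, the share differences ran from -10.2 to -8.63 points for Igfbp4, from -1.04 to -0.89 for Igfbp6, from 0.075 to 1.06 for Igfbp5, from 2.11 to 12.2 for Igfbp3, from -1.83 to 6.78 for Igfbp7 and from -0.087 to -0.027 for Igfbp2. With 10 to 82 reads per library, Igfbp2 carries the largest counting error of the 9 genes.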
